A study of Mus musculus with 12 samples.

Results

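The genes that copy DNA during S phase were described in spleens of 2 BALB/c colonies, BALB/cJ and BALB/cByJ, before and after immunization with cartilage proteoglycan (PG). In naïve spleens these genes were higher in BALB/cByJ than in BALB/cJ as a group, with a median log2 difference of 0.66 (1.59-fold) over their probe sets. In immunized spleens the median difference was 0.30, and no probe set passed the test. The list held 46 genes. A probe set, the group of short probes on the array that reads one transcript, was a member where its annotated symbol was exactly one of the 46, which gave 105 probe sets of 45 genes among 45037 probe sets tested. The remaining listed gene was Chaf1a, a subunit of the chromatin assembly factor, for which no probe set was analysed here. Of the 45 genes, 8 had 1 probe set and 37 had several, up to 5.

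Chromosomes are copied once per cell division. In G1 the origin recognition complex (Orc genes), Cdc6 and Cdt1 load the ring of Mcm2 to Mcm7 onto DNA, and the kinase Cdc7 with Dbf4, together with Cdc45 and the GINS proteins, turns the ring into an active helicase when S phase begins. DNA polymerases then extend primers along both strands, held by the sliding clamp Pcna. Many of these genes are transcribed in a burst at the G1 to S border under the E2F transcription factors, so their RNA is used as a sign of dividing cells. In the mouse spleen, dividing cells include red cell precursors, which the mouse makes there throughout life, activated lymphocytes and myeloid precursors.

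Each group held 3 arrays, 1 per spleen. The animals were female BALB/c mice of the colonies BALB/cJ and BALB/cByJ. Immunized mice had received a single intraperitoneal injection of 100 µg PG with 2 mg of the adjuvant dimethyldioctadecyl-ammonium bromide (DDA), naïve mice were left untreated, and all spleens were taken 12 days after the injection. The naïve mice received neither PG nor adjuvant, so effects of antigen and adjuvant cannot be told apart. RNA came from a 50 mg piece of each spleen. In such bulk tissue, fewer cells of a type and less RNA per cell cannot be told apart. No age is given in the labels. The values are logarithms, read as base 2 because the base is not given, of expression relative to the median of the 12 arrays for that probe set, so 0 is the median array, and the level of one gene cannot be set against that of another. For the same reason it could not be checked whether genes that define spleen cells were present or absent. In the sentences below, values are given in the order of replicates 1, 2 and 3, and differences are BALB/cByJ minus BALB/cJ unless stated otherwise.

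Several arrays stood apart in gene lists of other cells. The median of the erythroid list, markers of red cell precursors, was lowest in 3 BALB/cJ arrays, the naïve replicates 1 (-1.27) and 2 (-1.53) and the immunized replicate 3 (-0.9985), against -0.27 to 0.69 in the other 9 arrays. Pigment cell genes had their highest medians in the same naïve pair, at 2.45 and 1.70. They followed at 1.07 in the first immunized BALB/cJ array and at 0.88 in replicate 2 of immunized BALB/cByJ. Pancreatic genes had a median of 2.98 in naïve BALB/cByJ replicate 1. In that array the 3′ probe sets of Gapdh exceeded the 5′ ones by 0.30 relative to the median array, the highest value of the 12, as was the 0.16 of actin. Values with and without these arrays are given beside the results they touch.

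Promoter sequence is shown first because E2F sites are the best known feature shared by S phase genes. RefSeq windows of 250 bases before to 50 after the annotated start (build GRCm38.p6, the reference strain and not BALB/c) were matched for 39 of the 46 members, in 48 windows. Windows were searched on both strands for the E2F words TTTCCCGC, TTTGGCGC, TTTCGCGC and TTTGCCGC, which may overlap each other. At least 1 word was found in 15 member windows (31.2%), each of a different gene, against 2.26% of all 32851 windows. The share was 26.8% of 41 windows of further replication genes, 2.86% of 35 windows of mitosis genes and 0% of 17 windows of erythroid genes. The median GC content was 58% in member windows, 59% in mitosis windows and 52.7% in all windows. CCAAT occurred in 56.2% of member windows and in 37.4% of all windows. The word TTTGAA, the core of the element called CHR in mitosis genes, occurred in 14.6% of member windows, 17.9% of all windows and 80% of mitosis windows. These are matches of letters, not shown binding sites.

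The stretches printed here run 5′ to 3′ and end at the base before the annotated start, with E2F words in capitals. Mcm5 and Mcm6 show overlapping words read from both strands, Orc1, Cdc6, Cdc25a and Pola1 show 1 word each at different distances, and Rrm2, with one of the largest colony differences, shows a window that held none of these words.
Mcm5 (chr8:75109349-75109508, + strand): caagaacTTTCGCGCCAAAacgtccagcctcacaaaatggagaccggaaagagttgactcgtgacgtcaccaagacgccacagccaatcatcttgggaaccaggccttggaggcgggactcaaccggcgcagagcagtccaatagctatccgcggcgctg
Mcm6 (chr1:128359706-128359825, - strand): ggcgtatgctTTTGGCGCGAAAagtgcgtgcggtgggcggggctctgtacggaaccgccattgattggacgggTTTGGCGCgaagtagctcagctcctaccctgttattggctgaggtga
Orc1 (chr4:108579354-108579453, + strand): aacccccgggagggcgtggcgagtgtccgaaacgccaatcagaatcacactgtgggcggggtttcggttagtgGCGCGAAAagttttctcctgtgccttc
Cdc6 (chr11:98908001-98908150, + strand): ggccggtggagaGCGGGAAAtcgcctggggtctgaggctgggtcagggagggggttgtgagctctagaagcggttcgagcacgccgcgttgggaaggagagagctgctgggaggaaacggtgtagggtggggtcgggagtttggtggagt
Cdc25a (chr9:109875479-109875578, + strand): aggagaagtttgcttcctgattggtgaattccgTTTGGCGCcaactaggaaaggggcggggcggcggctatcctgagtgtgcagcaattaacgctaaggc
Pola1 (chrX:93632156-93632305, - strand): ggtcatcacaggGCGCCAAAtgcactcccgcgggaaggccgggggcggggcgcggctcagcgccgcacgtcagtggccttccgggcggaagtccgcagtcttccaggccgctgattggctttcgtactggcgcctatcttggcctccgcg
Rrm2 (chr12:24708104-24708253, + strand): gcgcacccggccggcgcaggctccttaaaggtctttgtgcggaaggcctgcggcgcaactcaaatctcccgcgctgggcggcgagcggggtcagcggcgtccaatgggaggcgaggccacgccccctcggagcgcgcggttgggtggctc

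Most members were higher in naïve BALB/cByJ than in naïve BALB/cJ spleens. At an adjusted p under 0.05 in limma's moderated test, 69 of the 105 probe sets were called, all higher in BALB/cByJ, against 4.39% of all 45037 probe sets (1976) and 2.68% called higher. Of the 45 genes, 38 had at least 1 called probe set, 22 had every probe set called, and 7 (Gins2, Cdc7, Pola2, Pold1, Rfc2, Rfc3 and Rfc5) had none. The median log2 difference was 0.66 over members and -0.01 over all probe sets. In 91 member probe sets all 3 BALB/cByJ arrays lay above all 3 BALB/cJ arrays, against 9.76% of all probe sets. Differences over 2-fold were called for 20 probe sets. With the mean of each gene's probe sets tested, 42 of 45 genes were called, against 7.54% of 18193 genes, and Cdc7, Pola2 and Pold1 were not.

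The call count rested on 3 arrays, and its direction did not. Without naïve BALB/cByJ replicate 3, naïve BALB/cJ replicate 1 or naïve BALB/cJ replicate 2, the count fell to 7, 5 and 4 probe sets (265, 232 and 161 over all probe sets, from 1976), while the median difference stayed at 0.59, 0.64 and 0.63 and 103, 102 and 102 of 105 differences were positive. Without naïve BALB/cByJ replicate 1, the array high in pancreatic genes, the count was 70. Probe sets of Dbf4, E2f1, Mcm6 and Rad54l were called in each of the 3 settings with 7, 5 or 4 calls. With the erythroid list's mean entered as covariate, limma called 0 members and 26 of all probe sets, 25 members had an unadjusted p under 0.05, the median was 0.26, and 94 differences were positive. The erythroid list itself differed between the naïve colonies, at a median of 1.45, so this fit cannot separate it from colony. Without the 3 arrays lowest in erythroid genes, which left 1 naïve BALB/cJ array, limma called 0 members and 17 of all probe sets, 71 members had an unadjusted p under 0.05 and the median was 0.53. Without the 4 arrays high in pigment cell genes, which left the same single naïve BALB/cJ array, limma called 0 members and 15 of all probe sets, 56 members had an unadjusted p under 0.05 and the median was 0.53. In both settings its spread is taken to equal that of the other groups. Analysis of variance over the 4 groups called 2 members, 1 each of Cdc25a and Rad54l, against 0.149% of all probe sets.

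**Figure D1:**
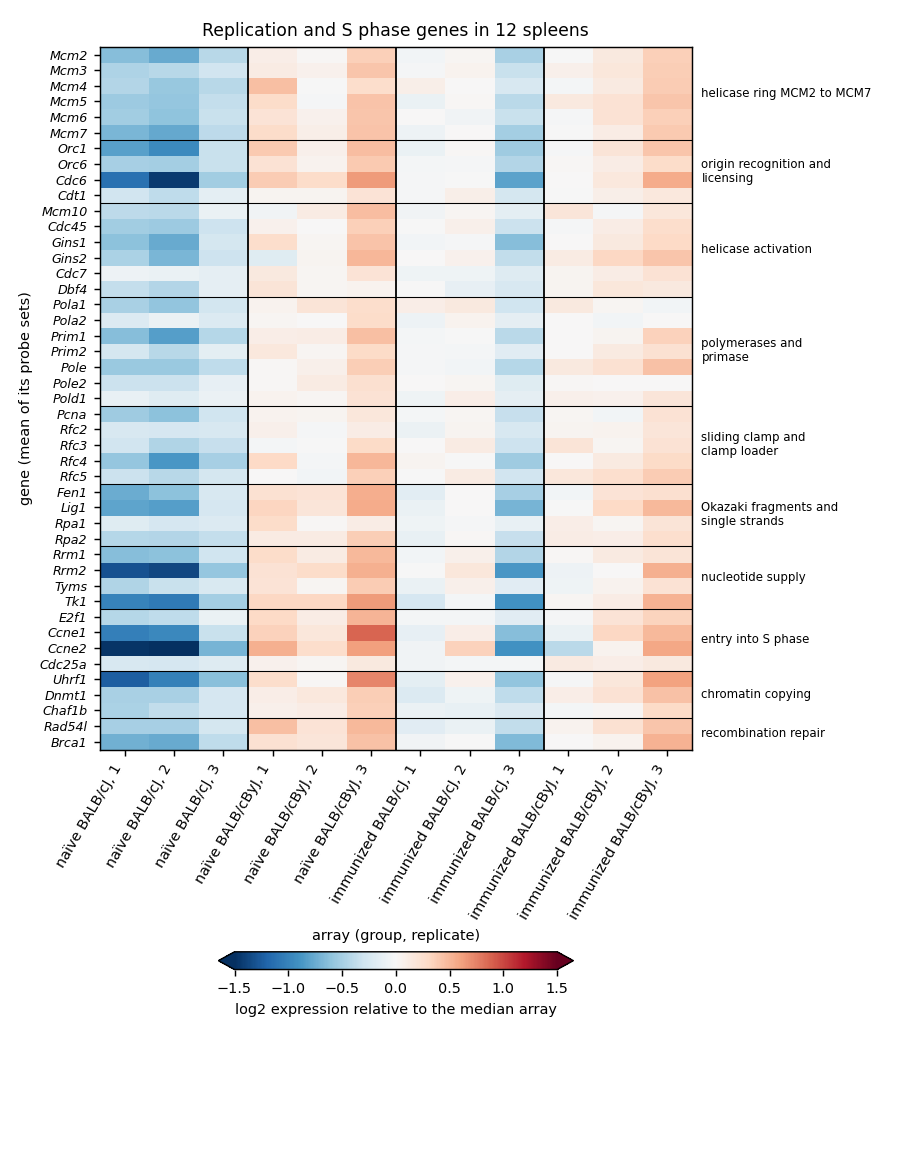
Heat map of 45 replication and S phase genes (rows, mean of each gene's probe sets, grouped by role) in 12 spleens (columns, 4 groups of 3), colour showing log2 expression relative to the median array. The 3 naïve BALB/cJ arrays are blue for most genes, the naïve BALB/cByJ arrays are mostly red, with member medians of 0.05 to 0.38, and immunized BALB/cJ replicate 3 is bluer than the other immunized arrays.

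All 6 genes of the helicase ring, the motor that unwinds DNA at the fork, were higher in naïve BALB/cByJ spleens, with 16 of 19 probe sets called and a median log2 difference of 0.76. Mcm2 read -0.58, -0.66 and -0.40 in BALB/cJ and 0.10, 0.03 and 0.22 in BALB/cByJ. Mcm3 read -0.47, -0.51 and -0.33 in BALB/cJ and 0.34, 0.0042 and 0.46 in BALB/cByJ. Mcm4 read -0.48, -0.54 and -0.32 in BALB/cJ and 0.29, 0.01 and 0.32 in BALB/cByJ. In these 3 genes every BALB/cJ value lay below every BALB/cByJ value, and BALB/cByJ replicate 2 was the lowest of its group. Mcm5 read -0.37, -0.39 and -0.37 in BALB/cJ and 0.31, -0.0044 and 0.47 in BALB/cByJ. Mcm6 read -0.62, -0.99 and -0.55 in BALB/cJ and 0.35, 0.11 and 0.51 in BALB/cByJ. Mcm7 read -0.66, -0.71 and -0.44 in BALB/cJ and 0.37, 0.03 and 0.26 in BALB/cByJ. The groups did not overlap here either, and in Mcm6 BALB/cJ replicate 2 was lower than the other 2. The log2 differences were 0.66 (SE 0.12, adjusted p = 0.0132) for Mcm2, 0.71 (SE 0.13, adjusted p = 0.0152) for Mcm3 and 0.65 (SE 0.12, adjusted p = 0.0137) for Mcm4. They were 0.63 (SE 0.11, adjusted p = 0.0109) for Mcm5, 1.04 (SE 0.15, adjusted p = 0.00706) for Mcm6 and 0.83 (SE 0.13, adjusted p = 0.00826) for Mcm7. The ring holds each of these proteins once, and the differences of the 6 genes, as means of their probe sets, lay between 0.59 (Mcm3) and 0.88 (Mcm7). The 3 probe sets of the ring that were not called were 1420029_at and 1426653_at of Mcm3, at 0.23 and 0.55, and 1447756_x_at of Mcm6, at 0.27.

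**Figure D2:**
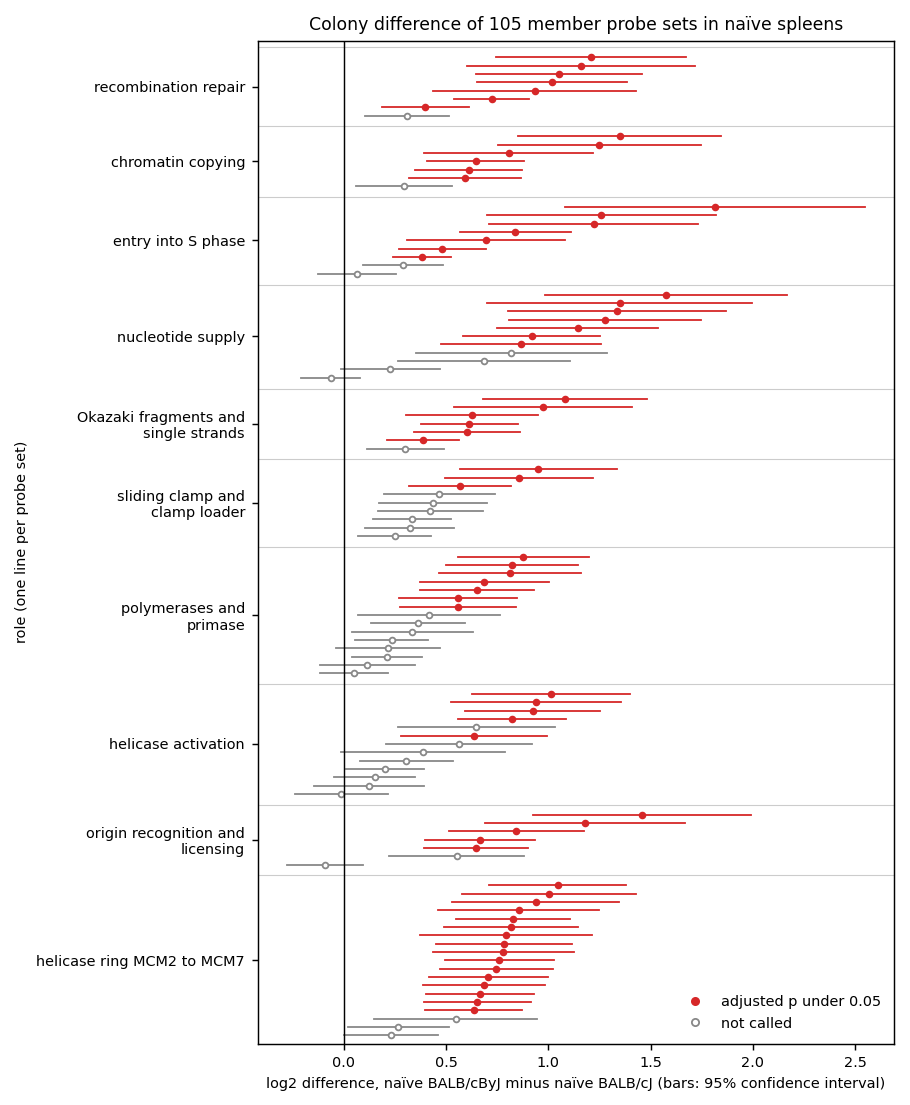
Log2 difference between naïve BALB/cByJ and naïve BALB/cJ spleens (x axis) for each of the 105 member probe sets, grouped by role, with 95% confidence intervals from limma. Filled red points are the 69 called, and 3 of the 105 differences lie below 0.

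The genes of origin recognition and licensing, which mark the sites where copying starts, had 5 of 7 probe sets called at a median of 0.67, with every gene called at least once. Cdc6, the loader of the ring, read -1.12, -1.43 and -0.52 in BALB/cJ and 0.38, 0.28 and 0.64 in BALB/cByJ. The BALB/cJ arrays lay far apart but all below BALB/cByJ, and the difference was 1.46 (SE 0.24, adjusted p = 0.0105), a fold of 2.75 and the third largest among the member genes. Orc1, the largest origin recognition subunit, differed by 1.18 (SE 0.23, adjusted p = 0.0155), and Orc6 by 0.67 (SE 0.12, adjusted p = 0.0142). The probe sets of Cdt1, the partner of Cdc6 in loading, disagreed. Probe set 1424143_a_at differed by 0.65 (SE 0.12, adjusted p = 0.0131) and 1424144_at by 0.55 (SE 0.15, adjusted p = 0.0639). The third, 1455791_at, read 0.19, -0.02 and 0.07 in BALB/cJ and -0.04, 0.01 and -0.01 in BALB/cByJ. Its groups overlapped, and its difference was -0.09 (SE 0.09, adjusted p = 0.639).

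Helicase activation had 5 of 13 probe sets called, at a median of 0.56 over the 13. Dbf4, the activator of Cdc7, read -0.66, -0.78 and -0.38 in BALB/cJ and 0.23, 0.11 and 0.30 in BALB/cByJ in 1418334_at. The groups were fully apart, at 0.82 (SE 0.12, adjusted p = 0.00706). Its other probe set, 1430545_at, read -0.07, -0.10 and 0.10 in BALB/cJ and 0.14, -0.05 and -0.20 in BALB/cByJ. In it the groups overlapped, at -0.01 (SE 0.11, adjusted p = 0.97). Cdc7, the kinase itself, read 0.02, -0.07 and -0.26 in BALB/cJ and 0.35, -0.02 and 0.28 in BALB/cByJ. Its groups overlapped through 1 BALB/cJ and 1 BALB/cByJ array, and the difference was 0.30 (SE 0.10, adjusted p = 0.127). Cdc45, which rides with the ring, differed by 1.01 (SE 0.18, adjusted p = 0.0115) in 1416575_at and by 0.20 (SE 0.09, adjusted p = 0.243) in 1457838_at. Mcm10, which helps to start the fork, was called in 1433408_a_at, at 0.92 (SE 0.15, adjusted p = 0.00994). It was not called in 1433407_at and 1454244_at, at 0.12 and 0.39. Of the GINS subunits, Gins1 was called in both probe sets, at 0.94 and 0.64, and Gins2 in neither, at 0.56 and 0.65.

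Polymerases and primase had 7 of 15 probe sets called and the lowest median of the roles, 0.42. Prim1, the catalytic subunit of primase, read -0.57, -0.86 and -0.38 in BALB/cJ and 0.21, 0.13 and 0.49 in BALB/cByJ. No BALB/cJ array reached a BALB/cByJ array, and the difference was 0.88 (SE 0.15, adjusted p = 0.0107). Its partner Prim2 was called in 1418035_a_at and 1418036_at, at 0.56 and 0.69. The third probe set of Prim2, 1445474_at, read -0.19, -0.11 and 0.0035 in BALB/cJ and -0.16, 0.04 and -0.03 in BALB/cByJ. Here the groups overlapped, at 0.05 (SE 0.08, adjusted p = 0.8). Among the catalytic subunits, Pola1 of polymerase alpha differed by 0.81 (SE 0.16, adjusted p = 0.0168) and Pole of polymerase epsilon by 0.65 (SE 0.13, adjusted p = 0.0174), both called. Pold1 of polymerase delta differed by 0.23 (SE 0.08, adjusted p = 0.144), with 0.22 in its other probe set. Pola1 had a second, uncalled probe set (1459319_at) at 0.42, and Pole2 had 1 called probe set at 0.56 (1427094_at) and 1 uncalled at 0.21 (1431440_at). The 3 probe sets of Pola2 were at 0.11, 0.36 and 0.34, none called. Whether the polymerase genes differ from each other was not tested.

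The sliding clamp Pcna, a ring that keeps polymerases on DNA, was called, at 0.57 (SE 0.12, adjusted p = 0.0198). Of its loader, both probe sets of Rfc4 were called and none of Rfc2, Rfc3 and Rfc5. Thus 3 of 9 probe sets passed, at a median of 0.44. By gene means limma also called Rfc2, Rfc3 and Rfc5, with adjusted p-values of 0.0339, 0.0368 and 0.045. Rfc4 read -0.64, -0.96 and -0.48 in BALB/cJ and 0.22, 0.0038 and 0.54 in BALB/cByJ. All its BALB/cJ arrays were below all BALB/cByJ arrays, at 0.95 (SE 0.18, adjusted p = 0.0142). Rfc2 read -0.22, -0.19 and -0.15 in BALB/cJ and 0.0027, 0.05 and 0.13 in BALB/cByJ in 1417503_at. These groups did not overlap either, but the difference was smaller, at 0.25 (SE 0.08, adjusted p = 0.117), and the Rfc2 probe set with the largest difference (1457669_x_at) was at 0.33 (SE 0.09, adjusted p = 0.0513). Rfc3 was at 0.47 and 0.42 and Rfc5 at 0.44, with no overlap between the groups in any of the 3 probe sets.

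The genes for joining Okazaki fragments and covering single strands had 6 of 7 probe sets called, at a median of 0.61. Fen1, the nuclease that trims the fragments, read -0.88, -0.93 and -0.48 in BALB/cJ and 0.21, 0.18 and 0.57 in BALB/cByJ. The difference, with no overlap, was 1.08 (SE 0.18, adjusted p = 0.0109), and it was 0.63 in the second probe set. Lig1, the ligase that seals them, differed by 0.97 (SE 0.20, adjusted p = 0.0206). Rpa1 and Rpa2 are subunits of the single-strand binding protein. In Rpa1, 1437309_a_at read -0.13, -0.21 and -0.14 in BALB/cJ and 0.34, 0.01 and 0.07 in BALB/cByJ. It was not called, at 0.30 (SE 0.09, adjusted p = 0.0724), whereas 1423293_at was, at 0.39 (SE 0.08, adjusted p = 0.0222). Both probe sets of Rpa2 were called, at 0.61 and 0.60.

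Nucleotide supply had 7 of 11 probe sets called and a median of 0.92. Rrm2, the regulated subunit of ribonucleotide reductase, which makes deoxynucleotides, read -1.37, -1.48 and -0.68 in BALB/cJ and 0.33, 0.28 and 0.59 in BALB/cByJ. BALB/cJ replicates 1 and 2 were the lowest, and replicate 3 was still below each BALB/cByJ array. The difference was 1.58 (SE 0.27, adjusted p = 0.0111), a fold of 2.98, and the other 2 probe sets were called at 1.35 and 1.34. Rrm1, the large subunit, was called in 1415878_at, at 0.92 (SE 0.15, adjusted p = 0.0104), and not in 1440073_at and 1448127_at, at 0.68 and 0.82. Tk1, thymidine kinase, differed by 1.28 (SE 0.22, adjusted p = 0.0107). Tyms, which makes thymidylate, had 4 probe sets that disagreed. Probe set 1438690_at read -0.73, -0.70 and -0.42 in BALB/cJ and 0.60, 0.29 and 0.69 in BALB/cByJ. It was called, at 1.14 (SE 0.18, adjusted p = 0.00887), as was 1442192_at, at 0.87. Probe set 1427810_at read 0.01, 0.10 and 0.03 in BALB/cJ and -0.06, 0.01 and -0.01 in BALB/cByJ. This was the only member probe set in which all BALB/cByJ arrays lay below all BALB/cJ arrays, at -0.07 (SE 0.07, adjusted p = 0.674), and 1427811_at was not called, at 0.23.

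Entry into S phase had 7 of 9 probe sets called, at a median of 0.69. E2f1, the founding E2F activator, read -0.61, -0.55 and -0.19 in BALB/cJ and 0.39, 0.21 and 0.57 in BALB/cByJ. Its groups were apart, at 0.84 (SE 0.13, adjusted p = 0.00728), with 0.69 (called) and 0.29 (not called, 1447840_x_at) in its other probe sets. Within this role the cyclin E genes, partners of the kinase Cdk2, had the largest differences. Ccne2 read -1.47, -1.87 and -0.70 in BALB/cJ and 0.53, 0.27 and 0.61 in BALB/cByJ. It differed by 1.82 (SE 0.34, adjusted p = 0.0142), a fold of 3.52 and the largest of the members, while the spread within naïve BALB/cJ was also the widest of the 105 probe sets (SD 0.60). Ccne1 was called in both probe sets, at 1.26 and 1.22. Cdc25a, the phosphatase that activates the cyclin E kinase, was called in 1417131_at and 1417132_at, at 0.38 and 0.48. Its remaining probe set, 1445995_at, read -0.11, -0.02 and -0.12 in BALB/cJ and -0.15, 0.07 and 0.02 in BALB/cByJ. In it the groups overlapped, at 0.07 (SE 0.09, adjusted p = 0.764).

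Chromatin copying had 6 of 7 probe sets called, at a median of 0.65. Dnmt1, which copies DNA methylation to the new strand, read -0.48, -0.48 and -0.30 in BALB/cJ and 0.13, 0.18 and 0.36 in BALB/cByJ. All 3 of its probe sets were called, this one at 0.65 (SE 0.11, adjusted p = 0.0107). Uhrf1, which brings Dnmt1 to half-methylated DNA, differed by 1.35 (SE 0.23, adjusted p = 0.0108) in 1415810_at and by 1.25 in the other. Chaf1b, a subunit that delivers histones, was called in 1423877_at, at 0.81 (SE 0.19, adjusted p = 0.0346). In 1431275_at it read -0.28, 0.01 and -0.22 in BALB/cJ and 0.09, 0.16 and 0.14 in BALB/cByJ. There the groups did not overlap, and the difference was 0.29 (SE 0.11, adjusted p = 0.155).

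Recombination repair had 7 of 8 probe sets called and the highest median of the roles, 0.98. Rad54l, a motor protein of strand exchange, read -0.31, -0.28 and -0.38 in BALB/cJ and 0.48, 0.35 and 0.36 in BALB/cByJ in 1423124_x_at. The 2 groups were tight and far apart, and the difference was 0.72 (SE 0.08, adjusted p = 0.00165), the lowest adjusted p of the members. The other 3 probe sets of Rad54l were called at 1.02, 1.05 and 0.40. Brca1, which prepares broken forks for repair, was called in 3 probe sets, at 1.21, 1.16 and 0.93. The fourth, 1427698_at, read -0.23, -0.02 and -0.02 in BALB/cJ and 0.25, 0.33 and 0.07 in BALB/cByJ. Its groups did not overlap, and it was not called, at 0.31 (SE 0.10, adjusted p = 0.0925).

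**Figure D3:**
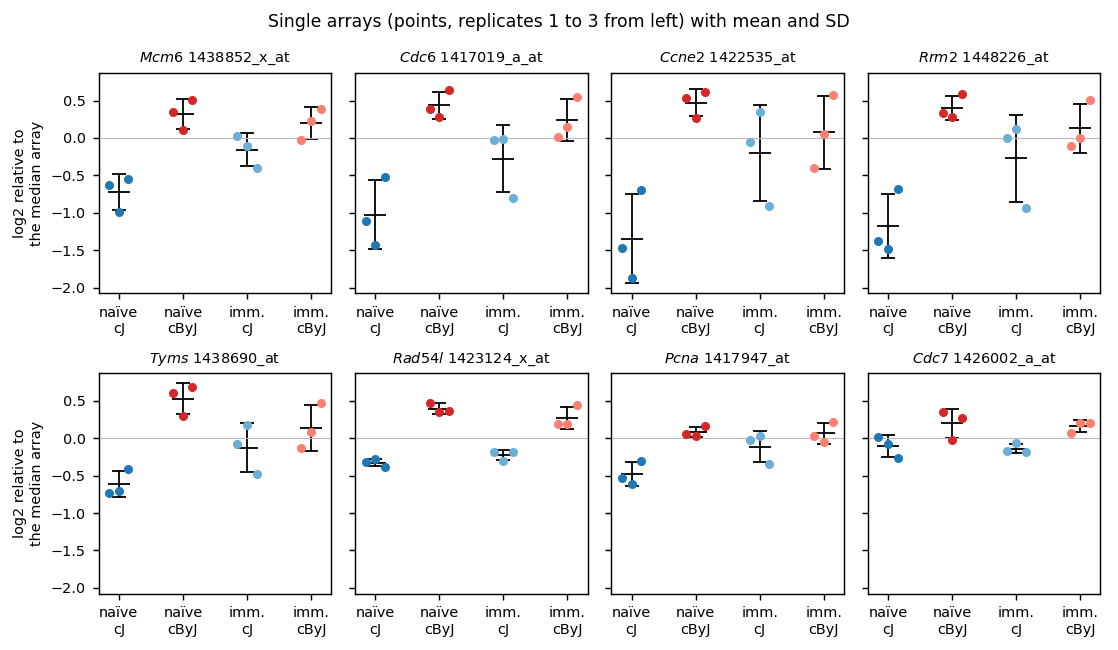
Log2 values relative to the median array (y axis) for 8 member probe sets in the 4 groups (x axis, cJ for BALB/cJ and cByJ for BALB/cByJ), with each of 3 arrays as a point, the mean as a bar and SD as whiskers. The naïve BALB/cJ mean is the lowest of the 4 groups in every panel but that of Cdc7, and in Rad54l the colonies stay apart after immunization, at -0.19 to -0.30 against 0.19 to 0.45.

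The level of the members as a whole varied between arrays. The median over the 105 probe sets was -0.51, -0.55 and -0.32 in the naïve BALB/cJ arrays and 0.20, 0.05 and 0.38 in the naïve BALB/cByJ arrays. Of the 105 probe sets, 66 had their lowest value in naïve BALB/cJ replicate 2 and 22 in replicate 1, and 55 had their highest value in naïve BALB/cByJ replicate 3. After immunization the medians were -0.04, -0.0015 and -0.36 in BALB/cJ and 0.02, 0.12 and 0.31 in BALB/cByJ. Thus the 2 colonies did not overlap in this median in either state, and immunized BALB/cJ replicate 3 was close to the naïve BALB/cJ arrays.

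In immunized spleens the colony difference pointed the same way in 97 of 105 probe sets, at a median of 0.30, and limma called 0, with an unadjusted p under 0.05 in 46. Over all probe sets 0.12% were called, and 3568 of 45037 had an unadjusted p under 0.05. The analysis of variance called 2 members, 1 each of Cdc25a and Rad54l, against 0.158% of all probe sets. Without immunized BALB/cJ replicate 3 the median was 0.16, and without immunized BALB/cByJ replicate 3 it was 0.22, with an unadjusted p under 0.05 in 12 members each time. Without immunized BALB/cJ replicate 2 or immunized BALB/cByJ replicate 1 the median rose to 0.38 and 0.36, with 56 such members each time. With the erythroid covariate it was 0.14 with 23 such members, without the 3 arrays lowest in erythroid genes 0.16 with 12, and without the 4 high in pigment cell genes 0.37 with 27. In 43 member probe sets all BALB/cByJ arrays lay above all BALB/cJ arrays, against 8.14% of all probe sets. Rad54l (1423124_x_at) read -0.19, -0.30 and -0.19 in BALB/cJ and 0.19, 0.19 and 0.45 in BALB/cByJ. It came nearest to a call, at 0.50 (SE 0.08, adjusted p = 0.05004), and was called under quantile normalization of the deposited values, subtraction of each array's median, a robust variance, array weights and without naïve BALB/cByJ replicate 1, with adjusted p-values of 0.0164 to 0.0492. Dnmt1 (1422946_a_at), at 0.52 (SE 0.13, adjusted p = 0.299), was called only under quantile normalization, with an adjusted p of 0.047.

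The ring genes after immunization held colony differences of 0.27 to 0.43 without a call. Mcm2 read -0.04, 0.02 and -0.42 in BALB/cJ and -0.02, 0.14 and 0.25 in BALB/cByJ. Mcm3 read -0.01, -0.0042 and -0.37 in BALB/cJ and 0.13, 0.30 and 0.46 in BALB/cByJ. Mcm4 read -0.03, -0.01 and -0.29 in BALB/cJ and 0.09, 0.18 and 0.45 in BALB/cByJ. In Mcm2, Mcm3 and Mcm4, BALB/cJ replicate 3 was the lowest and BALB/cByJ replicate 3 the highest array. Mcm5 read -0.19, 0.0044 and -0.22 in BALB/cJ and 0.24, 0.22 and 0.33 in BALB/cByJ. Mcm6 read 0.03, -0.11 and -0.40 in BALB/cJ and -0.03, 0.23 and 0.39 in BALB/cByJ. Mcm7 read -0.03, -0.04 and -0.42 in BALB/cJ and 0.03, 0.06 and 0.30 in BALB/cByJ. The colonies overlapped in Mcm2 and Mcm6 and did not in the other 4 genes.

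Among licensing and activation genes, Cdc6 read -0.02, -0.01 and -0.80 in BALB/cJ and 0.01, 0.15 and 0.55 in BALB/cByJ. BALB/cJ replicate 3 was far below the other 2. Orc1 (1422663_at), among the 3 genes with the largest differences here, read -0.04, -0.06 and -0.75 in BALB/cJ and 0.04, 0.26 and 0.64 in BALB/cByJ, a difference of 0.60 (SE 0.23, adjusted p = 0.579). Dbf4 read -0.14, -0.08 and -0.48 in BALB/cJ and 0.08, 0.14 and 0.23 in BALB/cByJ in 1418334_at and 0.13, -0.16 and -0.003 in BALB/cJ and 0.003, 0.19 and 0.08 in BALB/cByJ in 1430545_at. Only the first of these kept the colonies apart. Cdc7 read -0.16, -0.06 and -0.18 in BALB/cJ and 0.07, 0.20 and 0.21 in BALB/cByJ. Its difference, 0.30 (SE 0.10, adjusted p = 0.539), equalled that in naïve spleens to 2 decimals, and the colonies did not overlap. Cdt1 (1455791_at) read 0.05, 0.10 and -0.04 in BALB/cJ and -0.02, 0.22 and -0.03 in BALB/cByJ, without separation.

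For the polymerases and the clamp, Prim1 read 0.01, -0.05 and -0.36 in BALB/cJ and -0.01, 0.04 and 0.35 in BALB/cByJ. Prim2 (1445474_at) read 0.02, -0.0035 and 0.03 in BALB/cJ and -0.05, 0.02 and 0.005 in BALB/cByJ. The colonies overlapped in both. Pold1 (1448187_at) differed by 0.15 (SE 0.12, adjusted p = 0.768), the smallest of the member genes by their probe set with the largest difference. Pcna read -0.03, 0.04 and -0.34 in BALB/cJ and 0.03, -0.04 and 0.22 in BALB/cByJ. Its colonies overlapped, at 0.18 (SE 0.12, adjusted p = 0.728). Rfc4 read -0.0038, 0.02 and -0.54 in BALB/cJ and -0.02, 0.17 and 0.31 in BALB/cByJ. Rfc2 (1417503_at) read -0.10, -0.0027 and -0.26 in BALB/cJ and 0.06, 0.06 and 0.20 in BALB/cByJ. The colonies overlapped in Rfc4 and did not in Rfc2. Pole2 (1427094_at) was also among the 3 smallest, at 0.19 (SE 0.13, adjusted p = 0.751).

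In the strand-joining and nucleotide genes, Fen1 read -0.17, 0.03 and -0.68 in BALB/cJ and -0.03, 0.14 and 0.39 in BALB/cByJ. Rpa1 (1437309_a_at) read -0.06, -0.01 and -0.10 in BALB/cJ and 0.10, 0.03 and 0.13 in BALB/cByJ. Tk1 had the largest colony difference of a member gene in immunized spleens, 0.62 (SE 0.22, adjusted p = 0.534), and read -0.26, -0.03 and -0.91 in BALB/cJ and 0.03, 0.11 and 0.52 in BALB/cByJ. In Fen1 the colonies overlapped, and in Rpa1 and Tk1 they did not. Rrm2 read 0.0018, 0.12 and -0.94 in BALB/cJ and -0.11, -0.0018 and 0.50 in BALB/cByJ. Tyms read -0.08, 0.18 and -0.48 in BALB/cJ and -0.14, 0.08 and 0.47 in BALB/cByJ in 1438690_at and 0.04, -0.02 and 0.04 in BALB/cJ and -0.13, -0.10 and -0.01 in BALB/cByJ in 1427810_at. In Rrm2 and both Tyms probe sets the colonies overlapped.

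Among the entry, chromatin and repair genes, E2f1 read -0.0024, -0.12 and -0.16 in BALB/cJ and 0.0024, 0.26 and 0.28 in BALB/cByJ. Ccne2 read -0.05, 0.34 and -0.91 in BALB/cJ and -0.40, 0.05 and 0.57 in BALB/cByJ. Its arrays spread widely in both colonies, at a difference of 0.28 (SE 0.34, adjusted p = 0.87). Cdc25a (1445995_at) read -0.01, -0.06 and 0.02 in BALB/cJ and 0.29, 0.01 and 0.11 in BALB/cByJ. Dnmt1 (1447877_x_at) read -0.14, -0.05 and -0.36 in BALB/cJ and 0.05, 0.24 and 0.37 in BALB/cByJ. Its colonies were apart, at 0.40 (SE 0.11, adjusted p = 0.414). Chaf1b (1431275_at) read -0.13, -0.33 and 0.05 in BALB/cJ and -0.01, -0.07 and 0.15 in BALB/cByJ. Brca1 read 0.02, -0.03 and -0.16 in BALB/cJ and -0.05, 0.10 and 0.14 in BALB/cByJ in 1427698_at, and 1451417_at was among the 3 largest differences by gene, at 0.57 (SE 0.23, adjusted p = 0.586).

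**Figure D4:**
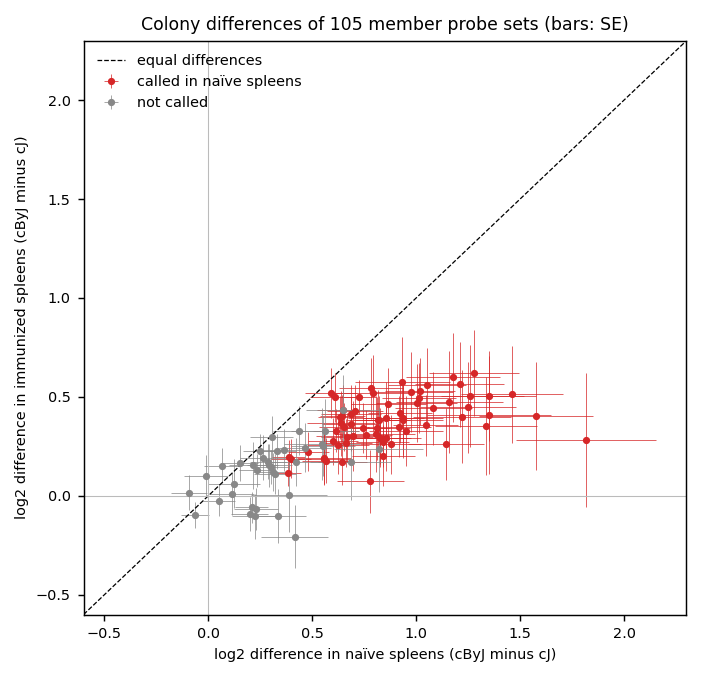
Colony difference (log2, BALB/cByJ minus BALB/cJ) in immunized spleens (y axis) against that in naïve spleens (x axis) for 105 member probe sets, with SE bars and a dashed line of equal differences. Most points lie below the line, and the immunized differences stay at or under 0.62 while the naïve ones reach 1.82.

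Immunization of BALB/cJ mice was accompanied by member values above those of naïve BALB/cJ in 101 of 105 probe sets, at a median log2 difference of 0.33, and limma called 0, as it called 0% of all probe sets. An unadjusted p under 0.05 was found for 60, against 4137 of all 45037 probe sets. The analysis of variance called 1 (Cdc25a), against 0.0622% of all probe sets, and array weights called 8, against 1.45%. The count of 60 fell to 1, at a median of 0.12, without the 4 arrays high in pigment cell genes, and to 20, at 0.28, without the 3 lowest in erythroid genes. It was 35 and 19 when naïve BALB/cJ replicate 1 or 2 was left out, and 30 and 19 when replicate 1 or 2 of the immunized arrays was, at medians of 0.23 to 0.29. The count was 62 without naïve BALB/cJ replicate 3 and 72 without immunized BALB/cJ replicate 3, at medians of 0.39 and 0.44. This comparison shares the naïve BALB/cJ arrays with the naïve colony comparison. The largest responses (immunized minus naïve) were 1.14 (SE 0.34, adjusted p = 0.378) for Ccne2, 0.90 (SE 0.27, adjusted p = 0.378) for Rrm2 and 0.76 (SE 0.23, adjusted p = 0.378) for Uhrf1. The smallest were 0.18 (SE 0.08, adjusted p = 0.529) for Rpa1, 0.15 (SE 0.12, adjusted p = 0.754) for Pold1 and -0.03 (SE 0.10, adjusted p = 0.958) for Cdc7. With the erythroid covariate the median response was 0.12, and 9 members had an unadjusted p under 0.05. In the same comparison the medians of the erythroid, granulocyte and heat shock lists were 0.65, 1.09 and 0.57, without a call. Their part in the member values was not tested.

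In BALB/cByJ mice the members stayed near their naïve values, at a median response of -0.06, with 35 of 105 responses positive. Limma and the analysis of variance called 0 members, against 0.0511% of all probe sets by limma and 0.06% by the analysis of variance. An unadjusted p under 0.05 was found for 1 member, against 3738 of all 45037 probe sets. The median was -0.07 without naïve BALB/cByJ replicate 1, the array high in pancreatic genes, 0.016 with the erythroid covariate, and -0.06 and -0.04 without the arrays lowest in erythroid or high in pigment cell genes. The largest responses were -0.49 (SE 0.19, adjusted p = 0.558) for Rrm1 (1440073_at), -0.40 (SE 0.34, adjusted p = 0.779) for Ccne2 and -0.39 (SE 0.18, adjusted p = 0.605) for Tyms (1438690_at). The smallest were -0.04 (SE 0.10, adjusted p = 0.932) for Cdc7, -0.02 (SE 0.12, adjusted p = 0.974) for Pcna and 0.01 (SE 0.18, adjusted p = 0.989) for Mcm2. Other genes were called in this comparison, in which sample number also follows immunization. Of the germinal centre B cell list, markers of B cells that divide after antigen contact, 4 of 10 probe sets were called higher. The median response of this list was 0.71 here and 0.20 in BALB/cJ. In BALB/cJ 9 of its 10 probe sets were positive and limma called 0. The analysis of variance called 1 in each colony. Against 1.09 in BALB/cJ, the granulocyte list had a median response of 1.56 here, with 0 called by limma or the analysis of variance. All 13 of its probe sets were higher without overlap, against 3111 of all 45037 probe sets. All 13 had an unadjusted p under 0.05, against 3738 of all probe sets.

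The difference of the responses (BALB/cByJ minus BALB/cJ), which is also the immunized minus the naïve colony difference, was negative in all but 4 member probe sets, at a median of -0.37. Limma called 0 members and 0% of all probe sets, and 32 members had an unadjusted p under 0.05, with 0.505 as the smallest adjusted p. The largest values were -1.54 (SE 0.48, adjusted p = 0.534) for Ccne2, -1.17 (SE 0.39, adjusted p = 0.539) for Rrm2 and -0.94 (SE 0.35, adjusted p = 0.576) for Cdc6. The smallest were -0.11 (SE 0.17, adjusted p = 0.925) for Rfc5, -0.10 (SE 0.12, adjusted p = 0.879) for Pold1 and 0.01 (SE 0.13, adjusted p = 0.986) for Cdc7 (1426021_a_at). The Cdc7 values given above are of its other probe set, 1426002_a_at. The smaller colony difference in immunized than in naïve spleens therefore did not pass the test of the difference itself. With the erythroid covariate the median was -0.083 and 6 members had an unadjusted p under 0.05. Without the 4 arrays high in pigment cell genes these were -0.16 and 1, and without the 3 lowest in erythroid genes -0.32 and 16. With single arrays left out the median ran from -0.45 to -0.26 and the count from 15 (immunized BALB/cJ replicate 2) to 55 (immunized BALB/cJ replicate 3).

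Other replication genes, a list of further fork factors, followed with smaller differences. In naïve spleens 29 of 89 probe sets and, by the mean of each gene's probe sets, 22 of 41 genes were called, all higher in BALB/cByJ, at a median of 0.30 over probe sets. The shares called over all probe sets and all genes were 4.39% and 7.54%. The largest called genes were Asf1b, a histone chaperone, at 1.12, Clspn, a checkpoint adaptor, at 1.02, Gmnn, which blocks Cdt1 after S phase begins, at 1.01, and Chtf18, of an alternative clamp loader, at 0.99. Of the regulators of the G1 to S step, 11 of 60 probe sets were called. By gene means 7 of 27 genes were called, all higher: E2f7 (1.83), E2f8 (1.37), E2f2 (1.26), Tfdp2 (1.10), Cdkn2d (0.76), Cdkn2c (0.75) and Ccnd3 (0.48). E2f7 and E2f8 are repressors of E2F targets, Cdkn2c and Cdkn2d inhibit the cyclin D kinases, and Ccnd3 is a cyclin D. The gene means of Myc, Cdk2, Cdk4, Rb1 and E2f3 were not called, at 0.14, 0.17, 0.06, 0.22 and 0.13. Rb1, the retinoblastoma protein that restrains E2F factors, had 1 called probe set at 0.50, with an adjusted p of 0.0377 in limma, and 1 uncalled at -0.07. Rbl1, its relative, had 1 called at 0.64 and others uncalled at 0.27, 0.04 and -0.15, and its gene mean of 0.20 was not called. No gene of either list was called lower. In immunized spleens limma called 0 of the 89 and 0 of the 60 probe sets of these lists, and the analysis of variance also called 0. An unadjusted p under 0.05 was found for 23 and 7 of them, against 3568 of all 45037 probe sets.

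The mitosis and cytokinesis genes moved with the members in naïve spleens. In naïve spleens 55 of 77 of their probe sets were called higher in BALB/cByJ and none lower, at a median of 0.88, and 33 of 35 genes were called by their means. Their array medians were -0.77, -0.79 and -0.29 in naïve BALB/cJ and 0.23, 0.24 and 0.44 in naïve BALB/cByJ. Erythroid genes were called higher for 20 of 31 probe sets and 16 of 18 gene means, none lower, at a median of 1.45, with array medians of -1.27, -1.53 and -0.27 against 0.22, 0.40 and 0.69. B cell genes were the other way, with 2 of 16 probe sets called lower, a median of -0.24 and array medians of 0.05 to 0.17 against -0.16 to -0.03. Negative medians were also found for the granulocyte list, at a median of -0.64 with 13 of 13 probe sets negative, 0 called by limma or the analysis of variance and 7 with an unadjusted p under 0.05, stroma and red pulp genes, at -0.34 with 12 of 12 negative and 1 called, and plasma cell genes, at -0.26 with 13 of 14 negative and 2 called. The granulocyte arrays overlapped, at -0.88 to 0.13 in BALB/cJ and -1.06 to -0.81 in BALB/cByJ. Pigment cell genes were at a median of -1.40 with 12 of 12 probe sets negative, and pancreatic genes at 1.19 with 12 of 12 positive. Germinal centre B cell and T cell genes were at -0.22 and -0.098, and megakaryocyte and heat shock genes at -0.025 and -0.083. Of the probe sets in these lists, limma called 1, of heat shock, lower, which was 4.55% of that list. By gene means it called 2 of 6 germinal centre genes and 1 of 8 heat shock genes lower. In naïve spleens limma called 4.39% of all probe sets and 7.54% of all genes, and 8444 of 45037 probe sets had an unadjusted p under 0.05. The counts of all these lists are to be read beside these shares. The part of these cells in the member differences was not tested. The erythroid covariate itself differed between the naïve colonies, so that setting cannot separate erythroid genes from colony. Leaving out the arrays lowest in erythroid genes cannot do so either, since it leaves 1 naïve BALB/cJ array. In the immunized BALB/cJ arrays the erythroid medians were -0.16, 0.21 and -0.9985, and replicate 3 was also the lowest in members.

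**Figure D5:**
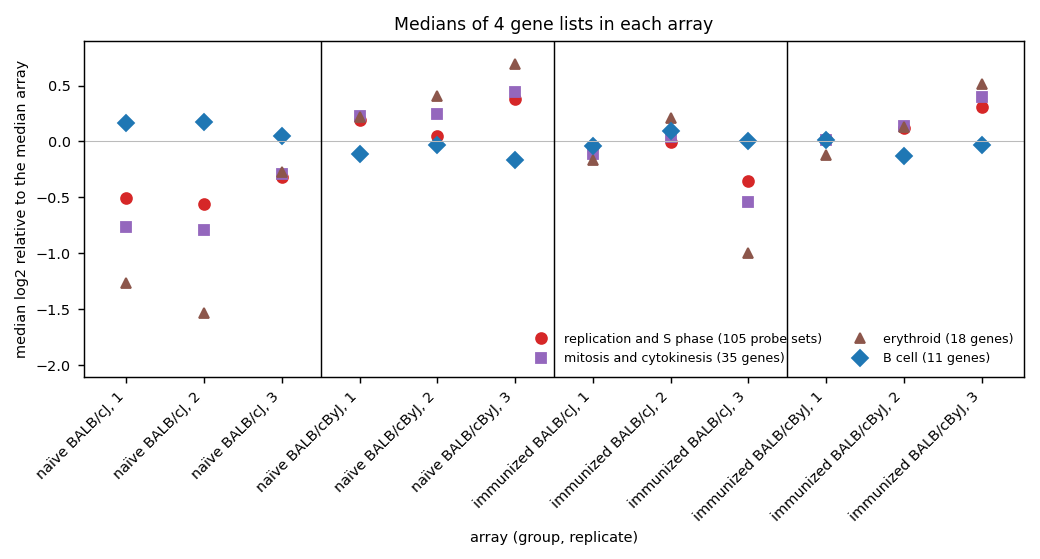
Median log2 value relative to the median array (y axis) of 4 gene lists in each of the 12 arrays (x axis, by group and replicate). Members, mitosis genes and erythroid genes are lowest together in 3 BALB/cJ arrays, naïve 1 and 2 and immunized 3, where B cell genes are between 0.00 and 0.17.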

How the data were processed

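Total RNA of 12 mouse spleens was hybridized to Affymetrix whole-genome mouse arrays. Deposited values come from robust multi-array averaging that the authors ran in GeneSpring (quantile normalization, median polish), after which the 12-array median of every probe set was taken off. The authors' methods give a logarithmic scale without its base, and the deposited values were read as log2, which this averaging yields, so every fold rests on that base. The values hold no signal level, so dim probe sets were not filtered, and precision is limited by 3 arrays per group. Of 45101 rows, 64 controls were left out. Of the rest, the platform annotation gave 34945 probe sets 1 gene, 932 several and 9160 none, and probe sets with several genes were not members. Probe sets with names ending in _s_at, _x_at or _a_at can bind related transcripts.

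One limma fit (version 3.58.1, R 4.3.3; lmFit with a mean per group, then eBayes) used the 12 arrays together for 5 contrasts: BALB/cByJ against BALB/cJ among naïve and among immunized mice, the response in each colony, and the difference of the responses. Calls were made at a Benjamini-Hochberg adjusted p under 0.05, with the adjustment across the 45037 probe sets. Nothing in the sources says whether arrays are separate litters or batches. The labels number the naïve samples 10 to 15 and the immunized ones 29 to 33 and 48 to 50. Numbers 10 to 12 are naïve BALB/cByJ and 13 to 15 naïve BALB/cJ. Number 48 is replicate 3 of immunized BALB/cByJ, and 49 and 50 are replicates 2 and 3 of immunized BALB/cJ. Sample number thus follows colony among naïve arrays and immunization over all arrays, and cannot be told apart from them. Heat shock medians were highest in numbers 48 to 50, at 0.595, 0.57 and 0.94.

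The members and lists were chosen with earlier results of these data known. Values of all arrays were given for Mcm2 to Mcm7 (its lowest F-test p over the groups choosing the probe set) and for the probe set with the smallest and the largest p in each other role. Differences were also given for the 3 genes with the largest and the 3 with the smallest difference in each comparison and for probe sets of one gene that disagreed. A gene was ranked by its probe set with the largest absolute difference in that comparison, so its probe set can change between comparisons. Further gene values beyond this rule, such as those of Tk1, Lig1 and Pole, were added to account for every gene. Alternatives were other normalizations, variance models and blocks, only those arrays that a contrast compares, the erythroid covariate, sets of arrays left out, each array left out, gene means, and the analysis of variance with Student-Newman-Keuls comparisons that the methods name. The fit was tested on simulated data. Promoter windows came from RefSeq (GRCm38.p6). Python 3.11.15, pandas 2.3.3 and matplotlib 3.10.9 were used.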

Additional observations from a re-analysis of the deposited data

How the results depend on the processing

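The count of 69 members called in naïve spleens was 61 to 85 under quantile normalization, subtraction of array medians, a robust variance, array weights, the run of sample numbers as a block and the compared arrays alone. It was 40 of 66 without the _s_at, _x_at and _a_at probe sets, 42 of 45 by gene means, 2 by the analysis of variance, and 0 with the erythroid covariate (median 0.26), without the 3 arrays lowest in erythroid genes and without the 4 arrays high in pigment cell genes. Leaving out each array gave 4 to 74 calls (7 without naïve BALB/cByJ replicate 3, and 5 or 4 when replicate 1 or 2 of naïve BALB/cJ was left out) and medians of 0.59 to 0.75. None of the 69 called probe sets changed sign in naïve spleens under the alternatives fitted by probe set with limma. The calls in immunized spleens were 0, and 2 by quantile normalization and the analysis of variance, 1 by array medians, a robust variance and array weights, and 0 to 1 with an array left out. Calls of the BALB/cJ response were 0, and 8 by array weights and 1 by the analysis of variance. Its median of 0.33 was 0.12 both with the covariate and without the pigment-high arrays. The median difference of the responses, -0.37, was -0.083 and -0.16 in these settings.

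The replicate number as a block gave 66 calls in naïve spleens and 0 in each other comparison. Deviations of same-numbered arrays from their group means correlated at -0.29 to 0.37, so the numbers were not taken as pairs. The causes of these changes were not tested. Some settings also hold fewer probe sets, genes or arrays. The depth of the arrays is unknown, since the values hold no signal over background.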
